A study of Mus musculus with 8 samples.

Results

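The subunits of cohesin, the ring-shaped complex that holds sister chromatids together, were followed over 8 Illumina MouseRef-8 v2 arrays of mouse embryonic stem cells (ESCs), primordial germ cells (PGCs) derived from them in vitro, and epiblast stem cells (EpiSCs). The genes were the meiotic subunits Smc1b, Rec8 and Stag3, their mitotic counterparts Smc1a, Rad21, Stag1 and Stag2, and Smc3, which both kinds of complex share. Every probe that the platform annotation assigns to 1 of these 8 genes was taken, which gave 18 probes of the 25697 on the array and 8 of its 16593 named genes. The arrays were Gcnf-deficient (Gcnf-/-) ESCs, day-12 PGCs and day-15 PGCs, wt ESCs, day-12 PGCs and day-15 PGCs, with 1 array each, and EpiSCs with 2 arrays. The strain label of all samples is C57BL/6, and the cell type label reads PGC on all of them, so that conditions were read from the titles. The wt and Gcnf-deficient ESCs carried an Oct4-GFP reporter that lacks the proximal enhancer, and the PGCs were sorted for its GFP after culture without LIF or feeder cells. The EpiSCs are labelled as not Gcnf knockout, and their derivation was not stated in the sources read. The study derived PGCs from both genotypes to see what the orphan nuclear receptor Gcnf (Nr6a1) does in germ cells, and the comparisons below read out the cohesin genes in that design.

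Cohesin is built from a pair of SMC ATPases, a kleisin that closes the ring, and a STAG protein bound to the kleisin. Dividing somatic cells use Smc1a, Smc3, Rad21 and either Stag1 or Stag2. Germ cells that enter meiosis also make Smc1b, Rec8 and Stag3, the counterparts of Smc1a, Rad21 and the other STAG proteins. Complexes with these subunits hold sister chromatids together through chromosome pairing, recombination and the meiotic divisions.

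Promoter sequence of 6 of the 8 genes was in the RefSeq-derived table (build GRCm38.p6), and Rad21 and Stag2 were not in it. Shown are stretches of the 3 meiotic genes and of Stag1, from 80 bases before the table's start site to 30 bases after it. Only the first listed start of each gene was used. Those of Stag3 and Stag1 lie well inside the annotated genes, which begin at chr5:138272514 and chr9:100597709. Their windows thus do not cover the outermost starts. The results turn on the 3 meiotic genes, and Stag1 was the 1 mitotic gene whose brightest probe had a called difference. Capitals mark TTCCCGC, the core of the site that E2F cell-cycle factors bind.
Smc1b promoter, chr15:85131928-85132037, minus strand: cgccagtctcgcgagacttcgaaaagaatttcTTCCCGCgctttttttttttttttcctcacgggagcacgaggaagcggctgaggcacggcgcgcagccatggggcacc
Rec8 promoter, chr14:55618086-55618195, plus strand: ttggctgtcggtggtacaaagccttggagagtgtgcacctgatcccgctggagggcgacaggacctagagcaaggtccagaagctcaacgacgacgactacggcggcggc
Stag3 promoter, chr5:138280429-138280538, plus strand: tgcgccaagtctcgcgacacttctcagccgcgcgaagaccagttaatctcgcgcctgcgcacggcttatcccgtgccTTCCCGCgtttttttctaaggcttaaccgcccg
Stag1 promoter, chr9:100643368-100643477, plus strand: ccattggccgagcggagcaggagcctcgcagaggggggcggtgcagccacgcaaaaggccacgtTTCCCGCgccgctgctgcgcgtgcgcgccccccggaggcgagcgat
In windows of 300 bases (250 before the start and 50 after), searched on both strands, TTCCCGC was found in 4 of the 6 promoters, those of Smc1b (from -48), Stag3 (from -3), Stag1 (from -16) and Smc1a (from 39), and in 4.6% of 32851 promoters of the table. The E-box CACGTG was found in 1 of the 6, Stag3 (from -170), and in 7.15% of all promoters. AGGTCA, the half-site that nuclear receptors of the Gcnf kind bind as a repeat, was in none of the 6 windows and in 16.3% of all promoters. The motifs do not overlap each other. CpG dinucleotides numbered 29 in the Smc1b window, 18 in that of Rec8 and 30 in that of Stag3, against a median of 7 over all promoters. The other genes had 23 in the Smc1a window, 32 in that of Smc3 and 43 in that of Stag1. Rec8 had the fewest, and the count did not set the meiotic genes apart. A match describes letters only and no binding was measured.

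Between 9939 and 11273 probes were detected per array (38.7% to 43.9%, detection p under 0.01), and the lowest detected log2 signal lay between 5.38 and 6.03. The EpiSC arrays differed by an SD of 0.26 in log2 over 9638 probes detected on both, and 0 of these differed over 4-fold. All 6 pluripotency markers measured were detected on the 6 ESC and PGC arrays, and between 4 and 6 of 8 germ cell markers, of which 0 were detected in EpiSCs. Of 5 measured genes of meiotic entry, Stra8 alone was detected, on the 6 ESC and PGC arrays, and Sycp1, Sycp3, Hormad1 and Dmc1 were detected on no array. Fibroblast markers stood apart on the ESC arrays. Their median log2 signal was 7.04 on the Gcnf-deficient ESC array, with 6 of 8 detected, and 10.26 on the wt ESC array, with 7 of 8 detected. On the other arrays it lay between 3.48 and 4.41, with 2 or 3 detected, and the collagen genes Col1a1, Col1a2 and Col3a1 were detected on none of these. The ESCs were grown on fibroblast feeders, so that PGC minus ESC differences, the genotype difference in ESCs and the interaction of both also hold this contrast. Endoderm markers moved with the PGC samples. Of 6, 4 were detected in Gcnf-deficient day-15 PGCs, 3 in Gcnf-deficient day-12 PGCs, 2 in wt day-12 PGCs, 1 in wt day-15 PGCs, 1 on each ESC array and 0 in EpiSCs, and Foxa2 and Gata4 were detected nowhere. Their median was 4.18 to 6.30 on PGC arrays, 3.52 to 3.82 on ESC arrays and 3.05 to 3.12 on EpiSC arrays. In PGCs minus ESCs all 4 that could be tested had an unadjusted p under 0.05 and were higher, with 0 called (limma). The part of either cell type in the cohesin differences was not tested, and fewer cells of a type and less RNA per cell cannot be told apart in these bulk samples. The probe of the targeted gene itself, Nr6a1, was detected on every array, at 9.94 to 11.03 in Gcnf-deficient ESCs and PGCs and at 9.64 to 10.38 in wt ESCs and PGCs. No source read places this probe inside or outside the deletion, so it does not test the genotype labels. The Y-linked gene Eif2s3y was detected on the wt day-12 array alone. Wt ESCs of both sexes were used in the study but Gcnf-deficient ESCs of females alone, and the labels name no line, so that genotype, line and sex cannot be told apart.

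Smc1b, the meiotic counterpart of Smc1a, was high in PGCs, lower in ESCs and not detected in EpiSCs. Its normalized log2 signal was 8.24 in Gcnf-deficient ESCs, 10.30 in Gcnf-deficient day-12 PGCs and 10.61 in Gcnf-deficient day-15 PGCs. In wt cells it was 6.79 in ESCs, 10.28 in day-12 PGCs and 11.76 in day-15 PGCs. The EpiSC arrays gave 2.63 and 3.89. All 4 PGC arrays lay above both ESC arrays, as they did for 13.9% of probes tested. Both ESC arrays lay above both EpiSC arrays, an order whose share over all probes was not counted. The highest value was that of wt day-15 PGCs.

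Stag3, the meiotic STAG protein, had the same order of cell types with less spread among PGCs. Its log2 signal was 9.87 in Gcnf-deficient ESCs, 10.84 in Gcnf-deficient day-12 PGCs and 11.18 in Gcnf-deficient day-15 PGCs. In wt cells it was 9.09 in ESCs, 10.92 in day-12 PGCs and 11.17 in day-15 PGCs, and the EpiSC arrays gave 4.29 and 4.11 without detection. The 4 PGC arrays spanned 10.84 to 11.18, above both ESC arrays, and their SD of 0.18 was below the SD of 0.70 among the same arrays for Smc1b.

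Rec8, the meiotic kleisin that separase cuts to release homologs and later sister chromatids, was the only meiotic subunit detected on all 8 arrays. Its log2 signal was 8.55 in Gcnf-deficient ESCs, 8.32 in Gcnf-deficient day-12 PGCs and 9.03 in Gcnf-deficient day-15 PGCs. In wt cells it was 6.80 in ESCs, 8.16 in day-12 PGCs and 10.13 in day-15 PGCs, and the EpiSC arrays gave 8.07 and 8.03. The PGC and ESC arrays overlapped, with Gcnf-deficient ESCs above both day-12 arrays and wt ESCs below all other arrays.

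**Figure D1:**
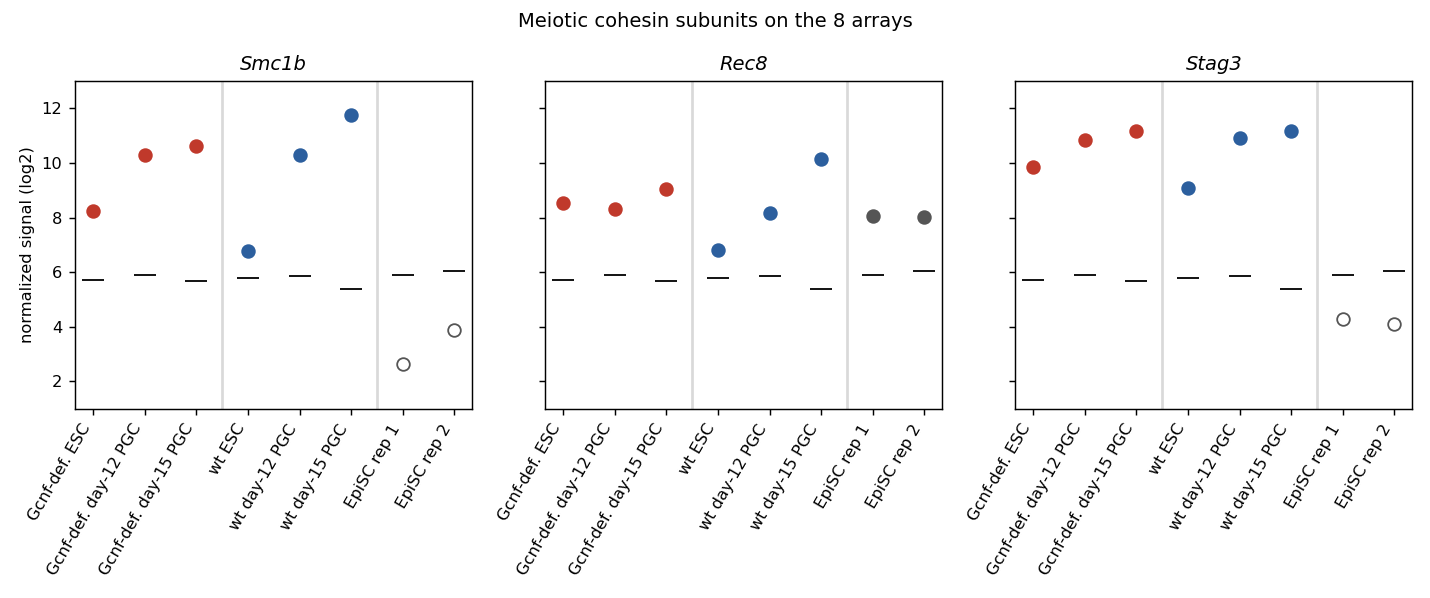
Normalized signal (log2) of the 3 meiotic cohesin genes on each of the 8 arrays, with red points for Gcnf-deficient cells, blue for wt cells and grey for EpiSCs. Filled points are detected, open points are not, and each short black line marks the lowest detected signal of that array. Smc1b and Stag3 fall below it on both EpiSC arrays (2.63 and 3.89, 4.29 and 4.11), where Rec8 stays above it (8.07 and 8.03).

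Set against ESCs of their own genotype, Smc1b was over 4-fold higher in all 4 PGC samples, Stag3 between 1.96-fold and 4.24-fold, and Rec8 over 4-fold in wt day-15 PGCs alone. Smc1b was 4.15-fold higher in Gcnf-deficient day-12 PGCs (log2 difference 2.05) and 5.14-fold higher in Gcnf-deficient day-15 PGCs (2.36), each against Gcnf-deficient ESCs. The differences ranked at percentiles 98.3 and 98.2 of all probes detected in those comparisons. Against wt ESCs, it was 11.2-fold higher in wt day-12 PGCs (3.49) and 31.3-fold higher in wt day-15 PGCs (4.97), at percentiles 99.6 and 99.9.

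Stag3 was 1.96-fold and 2.49-fold higher in Gcnf-deficient day-12 and day-15 PGCs, and 3.55-fold and 4.24-fold higher in wt day-12 and day-15 PGCs. Rec8 had log2 differences of -0.23 and 0.48 in Gcnf-deficient day-12 and day-15 PGCs. Those of wt day-12 and day-15 PGCs were 1.35 and 3.32, the last a 10.01-fold difference. From day 12 to day 15, Rec8 had a log2 difference of 0.71 in Gcnf-deficient PGCs and 1.97 in wt PGCs, and Smc1b of 0.31 and 1.48. Each such value compares 1 array with 1 array, without a replicate check. Those that involve wt day-12 PGCs, the array with Eif2s3y, cannot be told apart from a difference of line or sex.

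By the limit of 4-fold on the brightest probe, 1 of the 8 genes was higher in Gcnf-deficient day-12 PGCs than in ESCs (background 2.96% of probes in either direction) and 1 in Gcnf-deficient day-15 PGCs (4.41%), Smc1b both times. In wt cells, 2 passed on day 12 (6.09%), Smc1b and Rad21, and 3 on day 15 (9.34%), the 3 meiotic genes. None was over 4-fold lower. The Gcnf-deficient ESC array carries less fibroblast signal than the wt ESC array, but more than the PGC arrays. Setting wt PGCs against it also changes genotype and may change line, and these cannot be told apart. With that array in place of the wt ESC array, Smc1b alone passed in wt PGCs on either day (4.03% and 8.69% of probes). Its log2 difference was then 2.04 on day 12 and 3.51 on day 15. That of Rec8 was -0.39 and 1.58, and that of Stag3 1.05 and 1.30.

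The 5 mitotic and shared genes were detected on all 8 arrays by their brightest probe. Over the 6 ESC and PGC arrays, the log2 signal of the meiotic genes had a range of 2.10 (Stag3), 3.32 (Rec8) or 4.97 (Smc1b). That of the others had a range of 0.55 (Stag1), 0.85 (Smc1a), 1.16 (Stag2), 1.24 (Smc3) or 2.81 (Rad21), so that Rad21 varied more than Stag3. Probe levels are not compared between genes.

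Smc1a, the SMC subunit of mitotic cohesin, had a log2 signal of 11.28, 11.31 and 11.24 in Gcnf-deficient ESCs, day-12 PGCs and day-15 PGCs. It had 11.16, 10.89 and 11.74 in the wt samples of the same order, and 11.33 on both EpiSC arrays. By this brightest probe no cell type stood apart. Of its 5 probes, 4 were detected on at least 1 array, and they did not share 1 order. The second brightest and the one after it were lower on both EpiSC arrays than on the other 6 (10.51 and 10.47, and 7.96 and 8.22). The faintest, not detected on 3 arrays, was higher on both (6.08 and 6.77). How many of all probes set the EpiSC arrays apart in either direction was not counted.

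Smc3, the SMC subunit of all cohesin complexes, gave 11.13, 10.79 and 10.99 in Gcnf-deficient ESCs, day-12 PGCs and day-15 PGCs. It gave 9.93, 11.16 and 10.01 in the wt samples of the same order, and 10.58 and 10.33 in EpiSCs. The wt day-12 array, the one with Eif2s3y, stood 1.15 above wt day-15 PGCs, and the genotypes overlapped. Of its 4 probes, 2 were detected on at least 1 array. The second was detected in Gcnf-deficient ESCs (6.04) and wt day-12 PGCs (6.13) alone, near the limit of detection. In both it was over 4-fold above wt ESCs (3.70, not detected). Against the lowest detected signal of the wt ESC array, it was at least 1.20-fold higher in Gcnf-deficient ESCs and at least 1.28-fold higher in wt day-12 PGCs.

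Rad21, the mitotic kleisin, gave 7.83, 8.49 and 8.35 in Gcnf-deficient ESCs, day-12 PGCs and day-15 PGCs. It gave 5.88, 8.69 and 7.20 in the wt samples of the same order, and 7.76 and 6.67 in EpiSCs. The wt ESC value lay near the limit of detection of that array, 5.78, with a detection p of 0.0063. The 7.02-fold difference between wt day-12 PGCs and wt ESCs rests on that array, and the log2 difference from Gcnf-deficient ESCs was 0.87.

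Stag1, which holds cohesin at telomeres among other sites, gave 9.23, 9.26 and 9.13 in Gcnf-deficient ESCs, day-12 PGCs and day-15 PGCs. It gave 9.004, 9.09 and 9.55 in the wt samples of the same order, and 10.003 and 10.24 in EpiSCs. Both EpiSC arrays lay above the other 6, and the share of all probes that did so was not counted. Of its 3 probes, 1 was detected on any array.

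Stag2, the more abundant STAG protein of most somatic cells, is X-linked in mouse, as is Smc1a. Its brightest probe gave 9.91, 9.51 and 9.55 in Gcnf-deficient ESCs, day-12 PGCs and day-15 PGCs. It gave 10.50, 10.08 and 10.67 in the wt samples of the same order, and 10.75 and 10.64 in EpiSCs. The Gcnf-deficient arrays lay below all others, and the share of all probes with that order was not counted. The second Stag2 probe gave 7.79, 7.20 and 7.28 in those Gcnf-deficient samples and 7.27, 7.85 and 7.17 in the wt samples, which overlapped.

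**Figure D2:**
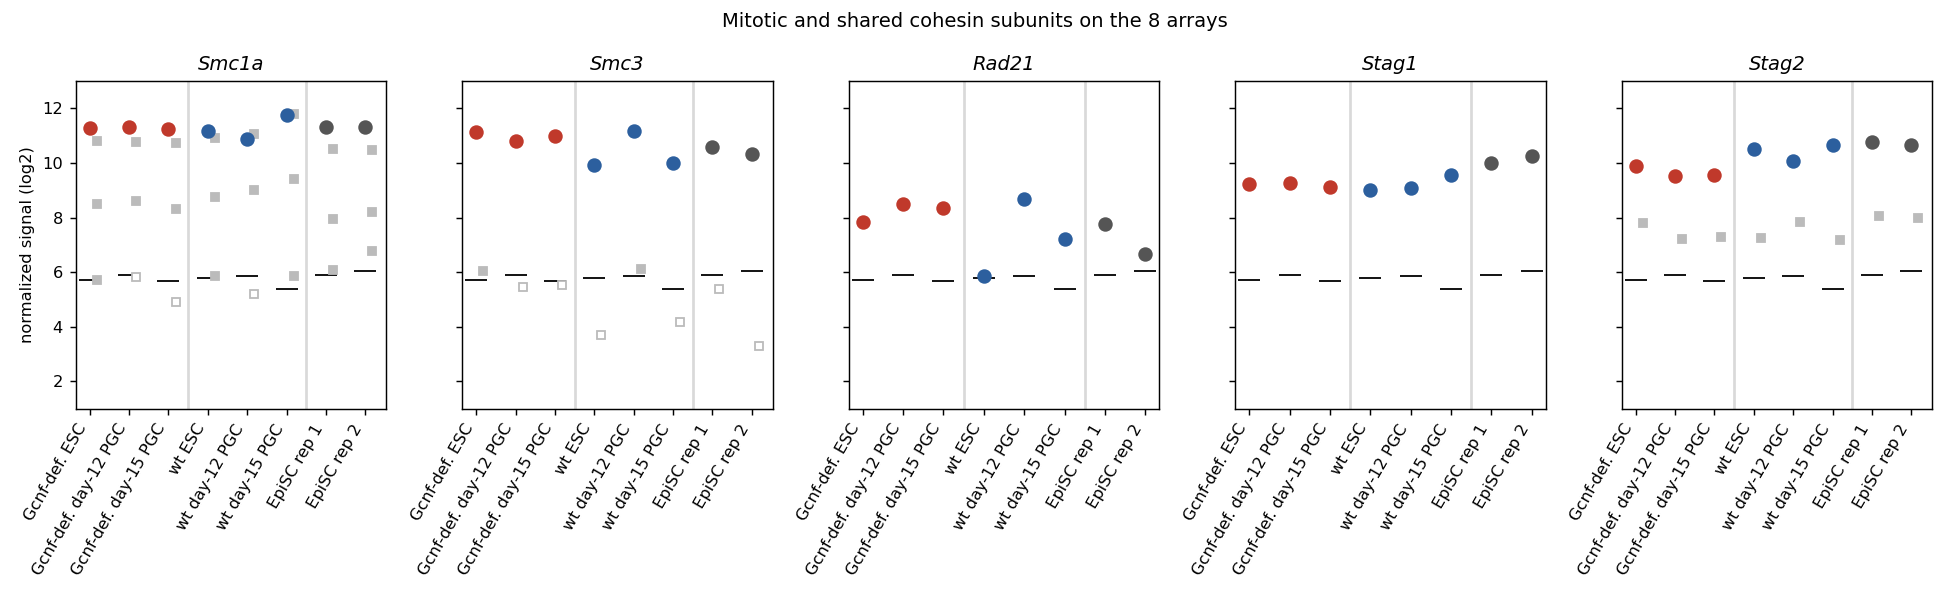
Normalized signal (log2) of Smc1a, Smc3, Rad21, Stag1 and Stag2 on each array, with red for Gcnf-deficient cells, blue for wt cells and dark grey for EpiSCs. Large circles show the brightest probe, small light grey squares the other probes of the gene detected on at least 1 array, open symbols a signal not detected and black lines the lowest detected signal. Stag2 has its 3 lowest circles in the Gcnf-deficient samples (9.51 to 9.91), and Stag1 its 2 highest in EpiSCs (10.003 and 10.24).

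The change of each meiotic gene from ESCs to PGCs was set beside that of its counterpart. Smc1b exceeded the change of Smc1a by 2.02 and 2.40 in log2 in Gcnf-deficient PGCs on days 12 and 15. In wt PGCs, the excess was 3.76 and 4.38. Smc1a itself changed by 0.03 and -0.04 in Gcnf-deficient PGCs and by -0.27 and 0.58 in wt PGCs.

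Stag3 exceeded the change of Stag1 by 0.94 and 1.42 in Gcnf-deficient PGCs, and by 1.74 and 1.54 in wt PGCs. It exceeded the change of Stag2 by 1.37 and 1.67 in Gcnf-deficient PGCs, and by 2.25 and 1.92 in wt PGCs. Smc1b and Stag3 thus exceeded their counterparts in every comparison. By their brightest probes, Smc1a, Stag1 and Stag2 themselves changed by -0.42 to 0.58 and in both directions. Other detected probes went further. The second brightest Smc1a probe changed by 0.88 in wt day-15 PGCs. The second Stag2 probe changed by 0.59 in wt and -0.59 in Gcnf-deficient day-12 PGCs. The kleisin pair differed from the SMC and STAG pairs. Rec8 minus Rad21 was -0.90 and -0.04 in Gcnf-deficient PGCs, and -1.46 and 2.00 in wt PGCs. Wt day-15 PGCs alone had a positive excess of Rec8. The 2 days of a genotype share an ESC array, so their values are not independent.

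**Figure D3:**
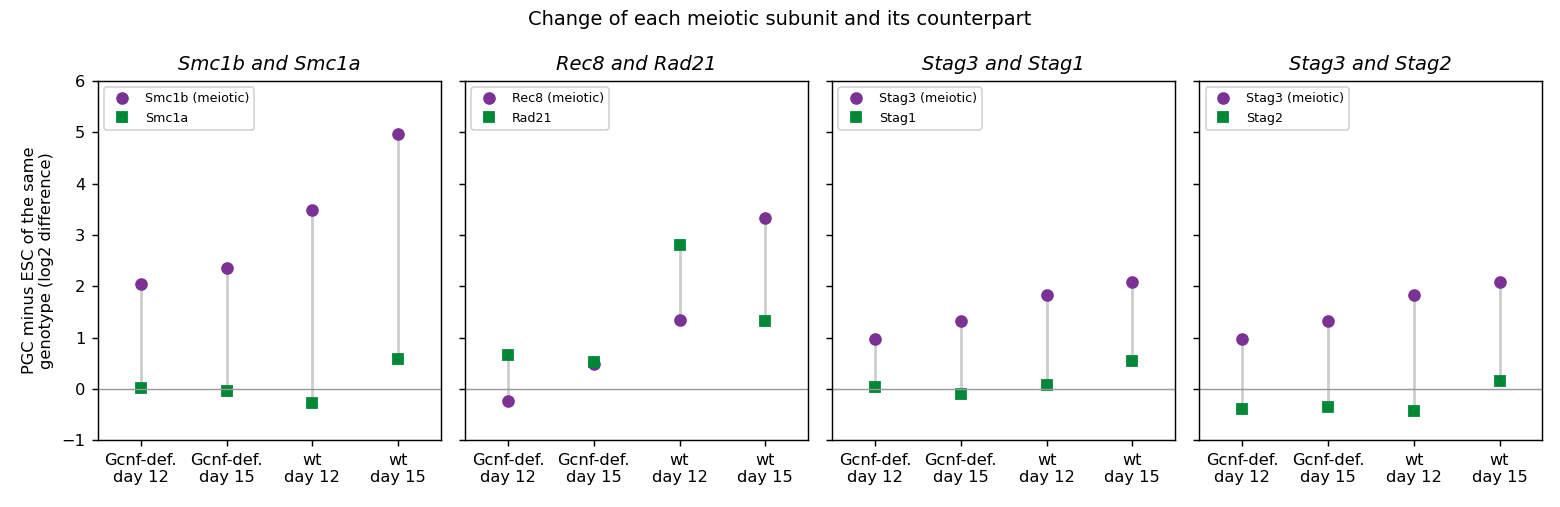
Log2 difference of PGCs minus ESCs of the same genotype (vertical axis) for each meiotic subunit (purple circles) and its counterpart (green squares), on days 12 and 15 of Gcnf-deficient and wt differentiation, 1 array a side. The circle lies above the square in every case for Smc1b and Stag3, and for Rec8 on wt day 15 alone (3.32 against 1.32).

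Tests were made with limma where arrays of other stages or of the other genotype could stand in for replicates, with p-values adjusted over all probes tested. In PGCs minus ESCs across genotypes (4 PGC arrays and 2 ESC arrays), Smc1b differed by 3.22 ± 0.59 in log2 (SE, 95% interval 1.79 to 4.65) and Stag3 by 1.55 ± 0.31 (0.81 to 2.29), both higher on every PGC array than on every ESC array. Neither passed (adjusted p = 0.0778 and 0.0886). Rad21 differed by 1.33 ± 0.52 (adjusted p = 0.243) and Rec8 by 1.23 ± 0.71 (adjusted p = 0.393).

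The other 4 genes differed by -0.25 (Stag2) to 0.21 (Smc3), with adjusted p of 0.661 or more. In all, 0 of 8 genes passed, and 0.362% of 12717 probes did. At an unadjusted p under 0.05, 3 of 8 passed (Smc1b, Stag3 and Rad21) and 19.3% of probes. PGC arrays lay above both ESC arrays for 13.9% of probes, and for Smc1b and Stag3 among the 8 genes. They lay below both for 14.4% of probes and for none of the 8 genes. Without the wt ESC array, the estimate for Smc1b was 2.21 (adjusted p = 0.438), that for Stag3 1.14 (adjusted p = 0.486) and that for Rec8 0.12.

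Between PGCs and EpiSCs, the meiotic SMC and STAG genes gave the largest differences of the 8. Smc1b was at least 27.2-fold higher in PGCs and Stag3 at least 33.3-fold higher, taking the mean of the 4 PGC arrays against the lowest signal detected on the EpiSC arrays, since neither was detected there. The fitted log2 differences were 7.42 ± 0.68 for Smc1b (adjusted p = 0.00052, limma) and 6.70 ± 0.30 for Stag3 (adjusted p = 3.62e-05). Both probes entered the fit through the ESC and PGC arrays, and their undetected EpiSC signals were used as they stood. The fitted sizes, SEs and p-values therefore rest on signals below detection, and the lower bounds above are the safer sizes. Both held the call in all 15 alternatives run, which share this limit. ESCs too had more than EpiSCs, at least 2.93-fold for Smc1b and at least 11.4-fold for Stag3.

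Stag1 was the 1 gene called lower in PGCs, by -0.86 ± 0.26 (adjusted p = 0.0451). With 8 of 15 alternatives it stayed below the threshold. It was lost without EpiSC replicate 1 (adjusted p = 0.147), without EpiSC replicate 2 (0.241), and without the wt day-12, Gcnf-deficient day-12 or Gcnf-deficient day-15 array (0.0869, 0.0797 and 0.0797). It was also lost with detection at p under 0.05 as the filter (0.0595) and with no filter (0.102). Its mean log2 signal was 9.26 ± 0.21 in PGCs (SD, n = 4), 9.12 in ESCs and 10.12 in EpiSCs (n = 2 each).

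Thus 3 of 8 genes were called by their brightest probe, Smc1b and Stag3 on undetected EpiSC signals, where 32.2% of 13151 probes were. Rec8 differed by 0.72 ± 0.73 (adjusted p = 0.477), and without the wt day-15 array by -0.24. Smc1a, Smc3, Rad21 and Stag2 differed by -0.04, -0.02, 0.49 and -0.36, with adjusted p between 0.33 and 0.972. The probes of Smc1a disagreed. The third brightest was called higher in PGCs (1.04 ± 0.28, adjusted p = 0.0283), the second brightest gave 0.85 (adjusted p = 0.072), and the faintest of those tested gave -0.90 (adjusted p = 0.123).

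Gcnf-deficient minus wt cells across stages gave no called cohesin gene (0 of 8, where 0.00786% of 12717 probes passed). Stag2 had the lowest unadjusted p, with -0.76 ± 0.28 (unadjusted p = 0.0331, adjusted p = 0.33), and was the 1 gene of 8 with an unadjusted p under 0.05, as 13.4% of probes had. Its brightest probe lay lower in Gcnf-deficient cells at all 3 stages, as did 21% of all probes tested, and the second probe gave -0.0022. Rad21 differed by 0.96 ± 0.44 (adjusted p = 0.41) and Smc3 by 0.60 ± 0.38 (adjusted p = 0.517), and neither was higher in Gcnf-deficient cells at all 3 stages, as 18.1% of probes were.

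The differences of Smc1b and Rec8 between genotypes had opposite signs in ESCs and on day 15. Gcnf-deficient minus wt ESCs gave 1.45 for Smc1b, 1.75 for Rec8 and 0.78 for Stag3, in a comparison where fibroblast markers had a median of -2.54 and 6 of 7 were over 4-fold lower. On day 12 the same genes gave 0.01, 0.16 and -0.07, and on day 15 they gave -1.15, -1.10 and 0.01. The day-15 values of Smc1b and Rec8 ranked at percentiles 8.9 and 10.1 of all probes tested there. Differences of that size were not limited to meiotic genes. By the brightest probe, Stag2 gave -1.12 on day 15, Smc1a -0.50 and Stag1 -0.42, while Rad21 gave 1.14 and Smc3 0.98. Other Smc1a probes detected on both day-15 arrays gave -1.09 and -1.12. The endoderm genes Afp and Ttr were detected in Gcnf-deficient day-15 PGCs (6.54 and 7.11) and not in wt day-15 PGCs. By the 4-fold limit on the brightest probe, 0 of 8 genes differed in ESCs (4.94% of probes did), 0 on day 12 (1.74%) and 0 on day 15 (4.51%).

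Whether PGCs differed from ESCs by another amount in Gcnf-deficient than in wt cells was tested as the interaction of genotype and state. Rec8 gave -2.21 ± 1.23 (adjusted p = 0.97), Smc1b -2.02 ± 0.96 (adjusted p = 0.917) and Stag3 -0.81 ± 0.56 (adjusted p = 0.998), where a negative value means a smaller PGC minus ESC difference in Gcnf-deficient cells. Fibroblast markers had interaction estimates of the opposite sign, with a median of 2.98 and 6 of the 7 tested at an unadjusted p under 0.05 (limma, 0 called). Of 12717 probes, 0 passed at an adjusted p under 0.05 (limma), 6.02% had an unadjusted p under 0.05, and 0 of the 8 genes did. With 2 residual degrees of freedom, the 95% intervals were wide, from -5.35 to 0.92 for Rec8 and from -4.45 to 0.41 for Smc1b.

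**Figure D4:**
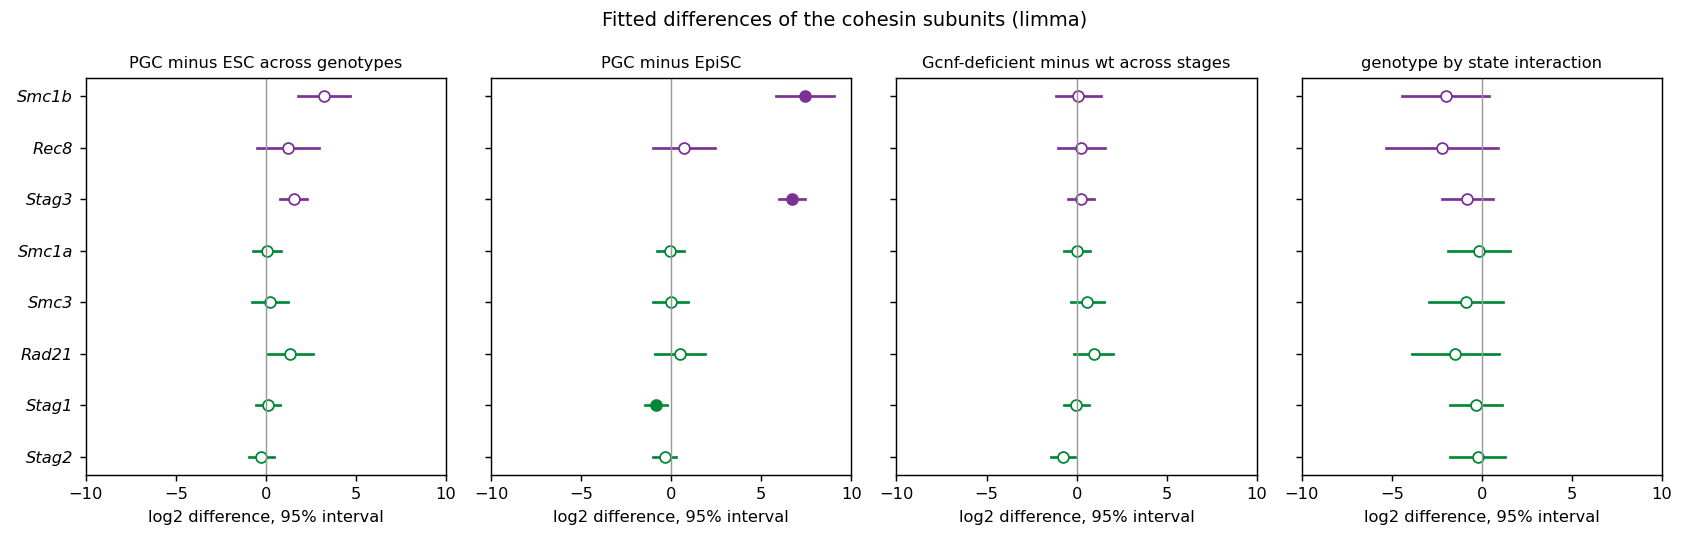
Fitted log2 differences (horizontal axis) of the brightest probe of each cohesin gene in the 4 limma fits, with 95% intervals. Meiotic subunits are purple and the others green, and filled points passed at an adjusted p under 0.05. These are Smc1b (7.42), Stag3 (6.70) and Stag1 (-0.86) in PGC minus EpiSC, and none in the other 3 panels. Smc1b and Stag3 were not detected in EpiSCs, so their values there rest on signals below detection.

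Factors that load, release, acetylate, protect or cut cohesin, and the related condensin and Smc5/6 complexes, were described beside the subunits, with 21 of 29 listed genes measured. Wapl, Pds5a, Sgo2a and the second meiotic kleisin, Rad21l, were not among them. In PGCs minus ESCs, 0 of 21 were called in either direction. Their estimates ran from -0.72 to 0.50 with a median of 0.01, against a median of -0.01 over all probes. The lowest was that of Pds5b, which binds the ring and governs its release (adjusted p = 0.218).

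In PGCs minus EpiSCs, 3 of 21 were called higher (16.7% of probes were) and 1 lower (15.5%). Esco2, the acetyltransferase that makes cohesion lasting in S phase, had a log2 signal of 10.47 and 10.46 in Gcnf-deficient day-12 and day-15 PGCs and 10.83 and 11.56 in wt day-12 and day-15 PGCs, against 9.17 and 9.26 in EpiSCs. The fitted difference was 1.90 ± 0.30 (adjusted p = 0.00433, limma). The ESC arrays, with 10.78 in Gcnf-deficient and 10.98 in wt cells, lay within the range of the PGC arrays. Sgo1, which shields centromeric cohesin until anaphase, rose by 0.82 (adjusted p = 0.0451), and Smc5 of the Smc5/6 complex by 0.82 (adjusted p = 0.0458).

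Ncaph2, the kleisin of condensin II, was lower by -1.58 ± 0.22 (adjusted p = 0.00264). It gave 10.01 and 10.08 in Gcnf-deficient day-12 and day-15 PGCs and 9.90 and 9.94 in wt day-12 and day-15 PGCs, against 11.50 and 11.43 in EpiSCs. ESCs lay between PGCs and EpiSCs, with 10.73 in Gcnf-deficient and 10.39 in wt cells.

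Between genotypes, 0 of the 21 were called. On day 15, Esco2 gave -1.10 in Gcnf-deficient minus wt PGCs, where the median of all probes was -0.10, with 1 array a side. The 3 measured markers of dividing cells (of 5 listed) were detected on every array and moved in different directions. In the same day-15 comparison Top2a gave -1.25, Cdk1 -0.55 and Pcna 1.20, and in PGCs minus EpiSCs Top2a was called higher (1.78, adjusted p = 0.0184, limma), as Esco2 was. Their part in the Esco2 difference was not tested.

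**Figure D5:**
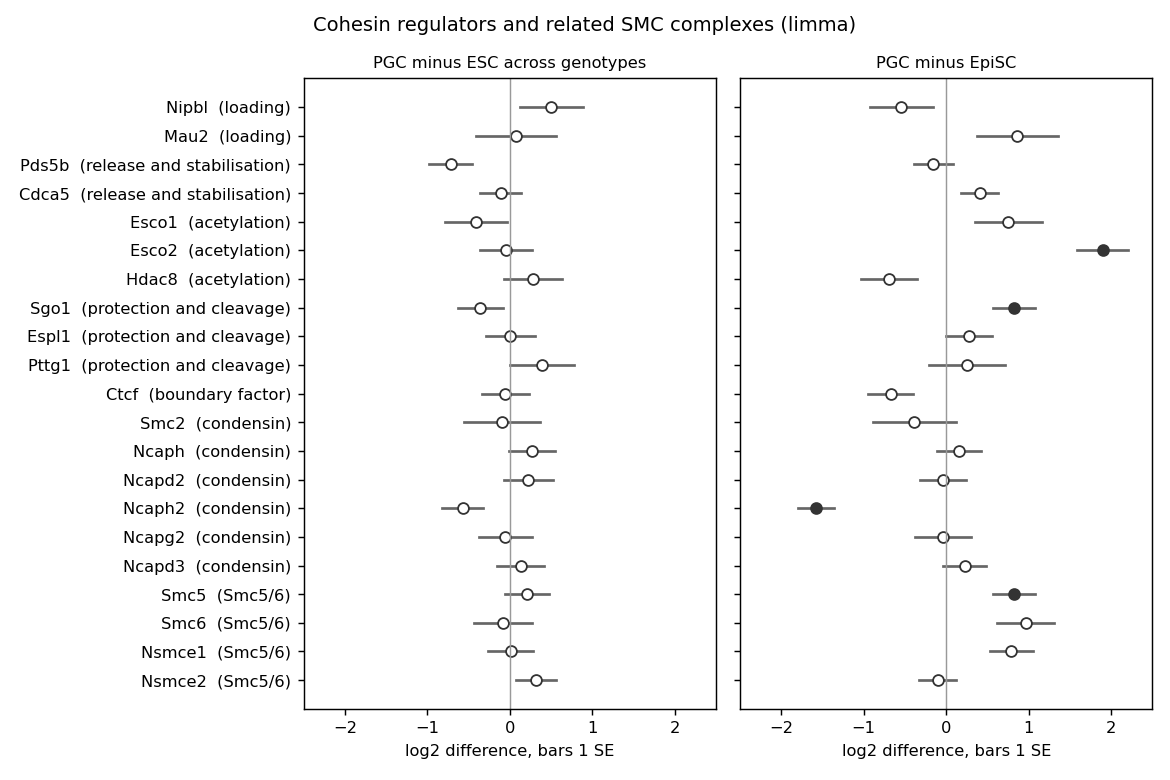
Fitted log2 differences (horizontal axis, bars 1 SE) of 21 cohesin regulators and genes of related complexes in PGC minus ESC and in PGC minus EpiSC. Filled points passed at an adjusted p under 0.05 (limma): Esco2 (1.90), Sgo1 (0.82), Smc5 (0.82) and Ncaph2 (-1.58), all in PGC minus EpiSC.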

How the data were processed

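The authors read the arrays with BeadStudio 3.2 and deposited, for each probe and array, a signal intensity without normalization. A detection p-value from the same software accompanies each intensity the authors deposited. A separate table that the authors deposited gives log2 values, made in lumi by RMA background subtraction and quantile normalization, and served as an alternative. Here the intensities were processed by the same steps (RMA background model, log2, quantile normalization over 8 arrays), and the result correlated with the authors' values at r = 0.998 over probes. A probe counted as detected at p under 0.01. Symbols came from the platform annotation, updated through gene identifiers (23978 probes with 1 symbol, 1719 with none). Of several probes of a gene, the one brightest on average was used for it. No value column was left unmapped.

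Calculations used R 4.3.3 and limma 3.58.1. The fits covered probes detected on at least 1 array of the comparison, with Benjamini-Hochberg adjustment: PGC minus ESC with genotype as a block (3 residual degrees of freedom), genotype with stage as a block (2), their interaction (2) and PGC minus EpiSC with state and genotype as terms (4). Signals below detection entered fits as they stood. Comparisons of 1 array with 1 array were given as values, with a limit of 4-fold and detection in the higher condition. No source read says whether the EpiSC arrays came from separate cultures, so that their spread may be technical, and the small number of arrays limits the precision. The fits were tested on simulated data. The 8 genes, the lists and the tests were chosen with earlier results of these data known. All 8 genes are named, as are listed regulators that were called and a few others, and the 5 genes most like each meiotic subunit. The alternatives were the authors' values, neqc, normexp with an offset of 50 or no correction of the background, scaling to the median, quantile normalization of 6 arrays, other detection filters, an intensity trend, fits without the block, other probes, a 2-fold limit and leaving out arrays.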

Additional observations from a re-analysis of the deposited data

How the results depend on the processing

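Smc1b and Stag3 kept their direction in all alternatives of PGC minus ESC and PGC minus EpiSC. In PGC minus ESC, where 0 of 8 genes passed, 1 passed with neqc, 2 with an offset of 50, 1 without background correction and 2 with an intensity trend. These were Smc1b (adjusted p = 0.0372 with neqc, 0.0326 with the offset, 0.0195 with the trend) and Stag3 (0.0342 with the offset, 0.0448 without correction, 0.0275 with the trend). Counts over 4-fold moved in several comparisons. In wt day-12 PGC minus ESC the count was 1 with an offset of 50, without background correction and against the Gcnf-deficient ESC array (chosen after seeing the data), and 5 at a 2-fold limit. In wt day-15 PGC minus ESC it was 1 against the Gcnf-deficient ESC array. In Gcnf-deficient day-12 PGC minus ESC it was 0 with neqc, with an offset of 50 and without correction. In Gcnf-deficient day-15 PGC minus ESC it was 0 without correction and 2 at 2-fold. In Gcnf-deficient minus wt ESC it was 1 with the authors' values and 4 at 2-fold, and on day 15 it was 4 at 2-fold. The causes were not tested.

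Of the estimates that changed sign, 1 was called, that of the third brightest Smc1a probe in PGC minus EpiSC (1.04). In PGC minus ESC, Smc1a gave -0.15 with median scaling and -0.34 by its faintest tested probe, and leaving out 1 array gave -0.12 to 0.25 for Smc1a, -0.24 to 0.66 for Smc3 and -0.031 to 0.32 for Stag1. In Gcnf-deficient minus wt, Smc1b gave -0.030 with an offset of 50 and -0.075 without correction, and Smc1a gave -0.064 with median scaling and -0.50, -0.60 and -0.16 by its other probes. Leaving out a stage gave -0.57 to 0.73 for Smc1b, -0.47 to 0.95 for Rec8, -0.030 to 0.40 for Stag3, -0.19 to 0.27 for Smc1a and -0.13 to 0.20 for Stag1. In the interaction, Smc1a gave 0.083 with median scaling, and leaving out 1 array gave -0.59 to 0.26 for Smc1a and -0.54 to 0.047 for Stag2. In PGC minus EpiSC, Smc1a gave 0.85 by its second brightest probe, and Smc3 gave 0.28 without the genotype term and 0.49 by its second probe. Leaving out 1 array gave -0.24 to 1.16 for Rec8, -0.37 to 0.24 for Smc1a, -0.54 to 0.28 for Smc3 and -0.22 to 1.03 for Rad21. No paired analysis was possible because replicate numbers join no arrays, every condition other than EpiSC having 1 array, while stage and genotype were blocks of the fits themselves. Signals near the background, such as that of Rad21 in wt ESCs, limit the differences taken from them.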

Other observations

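The genes whose signal followed each meiotic subunit most closely were ranked by Pearson's r over the 8 arrays, as a description. The arrays share their normalization, and for Smc1b and Stag3 the low EpiSC pair weighs on r. The 5 nearest to Stag3 were Pecam1 (r = 0.998), Tcl1, Kif18b, Tdrd12 and Ulk1. Tdrd12, which germ cells use in the piRNA pathway, gave a log2 signal of 9.58, 10.14 and 10.67 in Gcnf-deficient ESCs, day-12 PGCs and day-15 PGCs. It gave 9.19, 10.83 and 10.68 in the wt samples of the same order and was not detected in EpiSCs (5.75 and 5.24).

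The 5 nearest to Smc1b were Tbrg1 (r = 0.996), Arhgef3, Nckipsd, Pik3cb and Ifitm1, the last detected in wt day-15 PGCs alone. The 5 nearest to Rec8 were Glg1 (r = 0.971), Cln6, Tmem65, Rap1gap2 and Tarsl2, of which Rap1gap2 passed detection on the wt day-15 array alone. The r of Ifitm1 and of Rap1gap2 therefore rests mostly on signals below detection. Glg1, a Golgi protein, had 12.43, 12.75 and 12.84 in Gcnf-deficient ESCs, day-12 PGCs and day-15 PGCs, 11.43, 12.16 and 13.74 in the wt samples of the same order, and 12.31 and 12.32 in EpiSCs. As for Rec8, the lowest value was that of wt ESCs and the highest that of wt day-15 PGCs.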
